A study of Homo sapiens with 4 samples.

Results

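The 10 genes described here are the melanocyte lineage factors MITF, SOX10 and PAX3 and the pigment genes PMEL, MLANA, TYR, TYRP1, DCT, TRPM1 and GPR143. They were taken by symbol from a table of raw read counts that lists 56304 different genes, in which all 10 have a row of their own. RNA came from MV3, an established human line of metastatic melanoma that in every sample carried the H2B-GFP transgene, a fluorescent histone that marks nuclei. Spheroids of 50000 cells and no other treatment were embedded in collagen I and dissected on day 2 with a 1 mm punch for the core and a 3 mm punch for the surrounding invasion zone, giving 2 core and 2 invasion zone libraries that carry the replicate numbers 1 and 2. The punch cuts vertically, so that the core biopsy can retain invading cells from above and below the spheroid, and all samples are from 1 line. The libraries held 36363358 (core) and 37591782 (invasion zone) counts in replicate 1 and 14983135 and 11789243 counts in replicate 2. Nothing in the labels says whether the 2 replicates were independent cultures, so that p-values measure only the spread between these samples.

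Melanocytes arise from the neural crest, and their identity is set by a small group of transcription factors. SOX10 and PAX3 act together on the MITF promoter, and MITF, a basic helix-loop-helix leucine zipper factor, binds the M-box, a CATGTG element in the promoters of genes that make pigment. TYR, TYRP1 and DCT are the enzymes of melanin synthesis, PMEL forms the fibrils of the melanosome, MLANA is a melanosomal membrane protein, TRPM1 is a cation channel and GPR143 is a receptor in the melanosome membrane. Melanomas can keep this program or lose it during dedifferentiation.

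Promoter sequences were searched for the M-box letters. In RefSeq (GRCh38.p14), 8 of the 10 genes have an annotated window of 250 bases before a transcription start, 12 windows in all (SOX10 and PMEL were not matched). The letters CATGTG, searched on both strands, occur in the windows of 5 of these genes, TYR, TYRP1, DCT, TRPM1 and GPR143, and not in those of MITF, PAX3 and MLANA. Of 35116 RefSeq windows of the same length, 9.42% hold these letters at least once and 1.15% hold them 2 times or more, as TYR, TYRP1, GPR143 and 1 of the 2 DCT windows do. The cyclic AMP response element TGACGTCA, searched in the same way, lies 152 bases before the last of the 3 MITF starts and occurs in 1.65% of all windows. The windows printed here are those of the synthesis enzymes and of TRPM1, which were at or near 0 counts, of GPR143, which was abundant, and of MITF. They run 5′ to 3′ on the strand of the gene and end at the base before the start, with CATGTG, its reverse complement CACATG or TGACGTCA in capitals. They lie at chr11:89177625-89177874 (TYR, plus strand), chr9:12693135-12693384 (TYRP1, plus strand), chr13:94479683-94479932 (DCT, minus strand), chr15:31101726-31101975 (TRPM1, minus strand), chrX:9765848-9766097 (GPR143, minus strand) and chr3:69936342-69936591 (MITF, plus strand). The other TRPM1 window, at chr15:31161161-31161410, also holds 1 match and is not printed. A match of letters is a description and not a bound site.
TYR: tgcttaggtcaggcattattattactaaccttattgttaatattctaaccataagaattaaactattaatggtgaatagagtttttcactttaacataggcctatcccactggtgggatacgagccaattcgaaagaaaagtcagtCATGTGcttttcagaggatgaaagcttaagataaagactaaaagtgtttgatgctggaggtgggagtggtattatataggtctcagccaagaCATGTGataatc
TYRP1: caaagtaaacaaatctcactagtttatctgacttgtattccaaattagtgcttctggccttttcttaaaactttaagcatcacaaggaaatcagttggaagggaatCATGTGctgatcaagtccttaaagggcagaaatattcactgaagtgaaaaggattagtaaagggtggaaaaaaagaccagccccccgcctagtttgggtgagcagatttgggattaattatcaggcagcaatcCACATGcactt
DCT: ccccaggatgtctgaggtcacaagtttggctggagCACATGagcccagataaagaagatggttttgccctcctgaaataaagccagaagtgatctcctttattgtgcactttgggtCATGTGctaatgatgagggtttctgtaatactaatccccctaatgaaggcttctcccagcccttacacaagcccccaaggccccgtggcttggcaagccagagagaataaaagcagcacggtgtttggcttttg
TRPM1: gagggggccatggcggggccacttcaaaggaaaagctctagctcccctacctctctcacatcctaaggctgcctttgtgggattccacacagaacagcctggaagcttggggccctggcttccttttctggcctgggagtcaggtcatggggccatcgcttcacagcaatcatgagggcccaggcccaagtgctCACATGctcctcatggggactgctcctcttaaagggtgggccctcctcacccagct
GPR143: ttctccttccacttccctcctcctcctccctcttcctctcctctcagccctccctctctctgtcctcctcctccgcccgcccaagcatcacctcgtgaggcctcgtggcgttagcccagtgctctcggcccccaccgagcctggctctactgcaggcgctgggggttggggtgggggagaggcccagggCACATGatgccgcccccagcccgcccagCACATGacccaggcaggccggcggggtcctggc
MITF: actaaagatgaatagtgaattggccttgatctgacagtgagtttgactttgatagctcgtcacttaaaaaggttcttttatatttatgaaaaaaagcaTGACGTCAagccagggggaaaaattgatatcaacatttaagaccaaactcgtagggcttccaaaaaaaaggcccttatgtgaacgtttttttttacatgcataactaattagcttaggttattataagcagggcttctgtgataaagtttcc

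Among the lineage factors, SOX10 had no counts, MITF was scarce and PAX3 was well measured. SOX10 (ENSG00000100146, chromosome 22, 37970686 to 37987422, GRCh38), the factor that keeps neural crest and melanocyte identity, had 0 counts in all 4 libraries. Over their 100727518 counts together, this allows up to 0.0298 CPM (reads of a gene per 1000000 counted reads). Such limits, set at 3 counts, and all intervals of a single library cover counting error only.

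MITF (ENSG00000187098, chromosome 3, 69739456 to 69968336) had 82 and 30 counts in the core, or 2.26 and 2.00 CPM, and 64 and 40 counts in the invasion zone, or 1.70 and 3.39 CPM. The highest and the lowest value both came from the invasion zone, so that the zones overlapped. GENCODE 44 gives MITF 15 different starts of coding transcripts, and a count per gene does not tell the melanocyte form from the others.

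PAX3 (ENSG00000135903, chromosome 2, 222199887 to 222298998), a paired box factor of the neural crest and of muscle precursors, had 32.9 and 32.3 CPM in the core and 30.9 and 36.7 CPM in the invasion zone. These values rest on 1197, 484, 1160 and 433 counts. The 2 core values lay between the 2 invasion zone values, and the 4 libraries differed little.

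**Figure D1:**
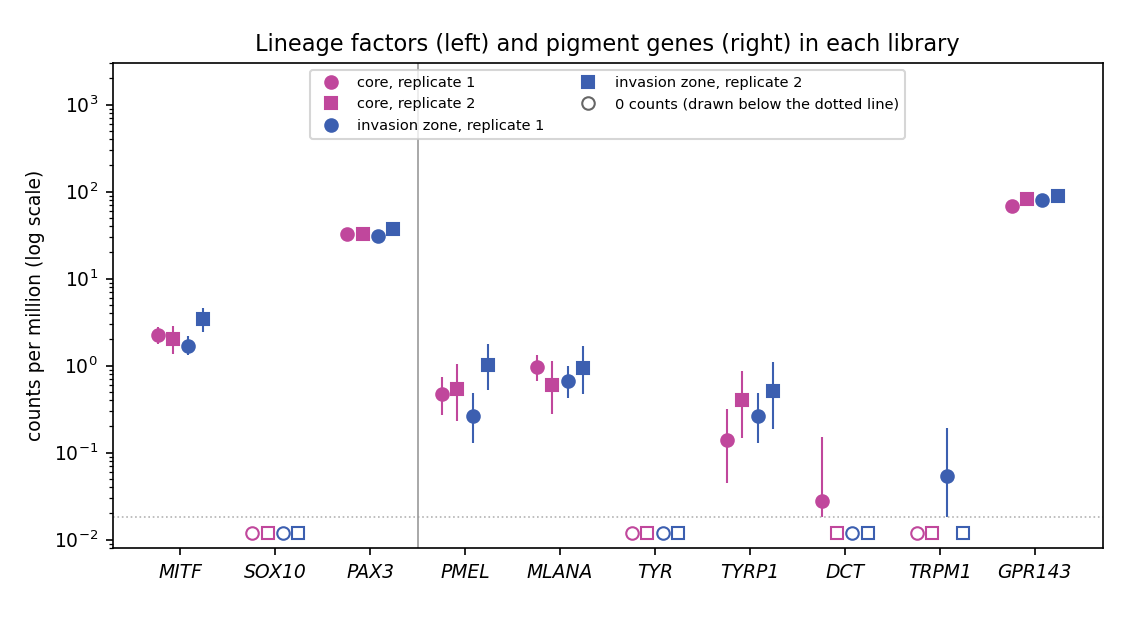
CPM on a log axis for the 10 genes in each of the 4 libraries, with exact 95% Poisson intervals of counting error as bars (cut off at the dotted line). SOX10 and TYR had 0 counts in every library, DCT and TRPM1 in 3 of 4, and PAX3 and GPR143 stood above 30 CPM in every library.

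Of the 7 pigment genes, 6 reached at most 1.02 CPM in any library, and GPR143 was abundant. TYR (ENSG00000077498, chromosome 11, 89177875 to 89295759), the rate-limiting enzyme of melanin synthesis, had 0 counts in all 4 libraries. DCT, which converts dopachrome in the same pathway, had 1 count in core replicate 1 and 0 in the others, and TRPM1 had 2 counts in invasion zone replicate 1 and 0 in the others. For both, each zone stayed at or under 3 counts, so no fold change is given.

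TYRP1 (chromosome 9, 12685439 to 12710285), the third enzyme of the family, had 5 and 6 counts in the core (0.138 and 0.400 CPM) and 10 and 6 counts in the invasion zone (0.266 and 0.509 CPM). PMEL (chromosome 12, 55954105 to 55973317) had 0.468 and 0.534 CPM in the core and 0.266 and 1.02 CPM in the invasion zone, from 17, 8, 10 and 12 counts. MLANA (chromosome 9, 5890889 to 5910606), the antigen known as Melan-A, had 0.963 and 0.601 CPM in the core and 0.665 and 0.933 CPM in the invasion zone, from 35, 9, 25 and 11 counts. In all 3 genes the zones overlapped, and the counting intervals were wide, as in PMEL, where they ran from 0.128 to 0.489 CPM in invasion zone replicate 1 and from 0.526 to 1.78 CPM in replicate 2.

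GPR143 (ENSG00000101850, chromosome X, 9725346 to 9786297) encodes the receptor that is altered in ocular albinism and that regulates the size and number of melanosomes. It had 67.8 and 81.8 CPM in the core and 79.9 and 89.0 CPM in the invasion zone, from 2466, 1226, 3002 and 1049 counts. Core replicate 1 was the lowest library and invasion zone replicate 2 the highest, while core replicate 2 lay above invasion zone replicate 1. Together PAX3 and GPR143 held 96.7% of the 11390 counts on the 10 genes, and the other 8 genes together had 3.85 and 3.54 CPM in the core and 2.95 and 5.85 CPM in the invasion zone.

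Exons of SOX10, PMEL, TYRP1 and TRPM1 overlap genes on the opposite strand in GENCODE 44, over 260 of 4826, 89 of 3671, 102 of 3736 and 334 of 7321 exonic bases. Whether the counting used strand is not stated, so that reads of these stretches could have been dropped or assigned to the wrong gene of a pair, in either direction. For PMEL the partner is CDK2, which had 3442 counts over the 4 libraries against 47 for PMEL.

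To compare levels between genes, CPM were divided by the exonic length of each gene in kb. GPR143 came first with 33.6 ± 3.71 CPM per kb (SD over the 4 libraries), above 90.7% of the 15395 tested genes that have a length. PAX3 came second with 4.18 ± 0.315 CPM per kb, close to the median of these genes, 4.10. MITF (0.315 ± 0.0995 CPM per kb), MLANA (0.264 ± 0.0614), PMEL (0.156 ± 0.0868) and TYRP1 (0.0879 ± 0.0432) followed, above 11.9%, 10.1%, 5.62% and 2.22% of tested genes. The ranges of GPR143, PAX3 and MITF were separate from each other, whereas each of MITF, MLANA, PMEL and TYRP1 overlapped its neighbour in this order. TRPM1 and DCT stood below TYRP1, at up to 0.00727 and 0.00365 CPM per kb in any library.

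**Figure D2:**
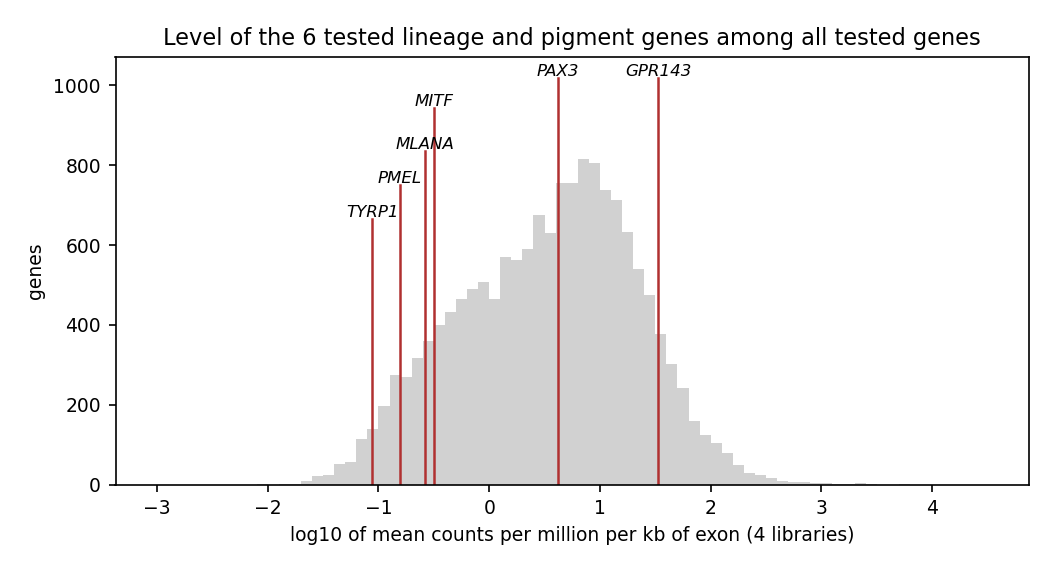
Distribution of log10 mean CPM per kb of exon over the tested genes (grey bars, number of genes), with the 6 tested lineage and pigment genes as lines. GPR143 (33.6 CPM per kb) lies in the upper tail and PAX3 (4.18) near the centre, and MITF, MLANA, PMEL and TYRP1 lie in the lower tail, between 0.315 and 0.0879.

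The zones were then compared to find whether lineage and pigment genes differ between cells of the core and invading cells. No member was called higher or lower in the invasion zone. In bulk RNA, fewer cells that express a gene and less RNA per cell cannot be told apart. The comparison used the quasi-likelihood test of edgeR over 15529 genes that passed a low-count filter, and a gene was called at a Benjamini-Hochberg adjusted p under 0.05 and a change of at least 2-fold. Of the 10 genes, 6 passed the filter (MITF, PAX3, PMEL, MLANA, TYRP1 and GPR143), PMEL, MLANA and TYRP1 on as few as 5 to 9 counts in a library, and 0 of the 6 were called. The same test called 0 of 15529 genes higher (0%) and 0 lower (0%), with 3769 genes at an unadjusted p under 0.05, so that the count of 0 members equals the background. None of the 6 had an unadjusted p under 0.05 (smallest 0.332), and limma voom, which called 0% of all genes in either direction, called 0 of the 6. DESeq2 also called 0, against 2.89% higher and 4.37% lower of the genes with an adjusted p, but gave no adjusted p for PMEL, MLANA and TYRP1.

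The intervals show which differences could have been seen. For PAX3 the log2 fold change, positive where the invasion zone is higher, was 0.04 (standard error 0.16, adjusted p = 0.916), with a 95% interval from 0.776-fold to 1.36-fold. GPR143 had a log2 fold change of 0.16 (standard error 0.15, adjusted p = 0.553) and an interval from 0.856-fold to 1.47-fold. For these abundant genes a 2-fold difference lay outside the interval.

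For MITF the log2 fold change was 0.20 (standard error 0.46, adjusted p = 0.828) and the interval ran from 0.519-fold to 2.54-fold. MLANA (-0.05, interval 0.372-fold to 2.50-fold), PMEL (0.20, 0.279-fold to 4.74-fold) and TYRP1 (0.55, 0.336-fold to 6.41-fold) had wider intervals, with adjusted p between 0.732 and 0.967. A 2-fold higher level in the invasion zone lay inside the interval of all 4 genes, and a 2-fold lower level inside those of MLANA, PMEL and TYRP1. The limit depends on the fit as well as on the counts, since with the replicate number as a block the MITF interval ran from 0.590-fold to 1.90-fold.

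Within the replicates the differences did not agree for 4 of the 6 genes. Within replicate 1 the log2 difference was -0.42 for MITF, -0.11 for PAX3, -0.79 for PMEL and -0.54 for MLANA, and within replicate 2 it was 0.75, 0.18, 0.90 and 0.62. TYRP1 (0.85 and 0.33) and GPR143 (0.22 and 0.12) were higher in the invasion zone within both. None of the 6 genes had both invasion zone libraries above or below both core libraries, against 28.3% of all tested genes above and 30.0% below. Invasion zone replicate 2, with 11789243 counts the shallowest library, gave the highest CPM of MITF, PAX3, PMEL, TYRP1 and GPR143.

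Replicates 1 and 2 differed in depth, and the libraries of a replicate carry consecutive numbers in the column headers. With the replicate number as a block, edgeR called 530 genes (3.41%) as higher in the invasion zone and 1097 (7.06%) as lower, and again 0 of the 6 members. The smallest adjusted p among them was then 0.165, that of GPR143, with a log2 fold change of 0.17 (standard error 0.09) and an interval from 0.979-fold to 1.29-fold. PAX3 had 0.03 (0.847-fold to 1.22-fold) and MITF 0.08 in this fit, which has 1 residual degree of freedom among the samples.

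**Figure D3:**
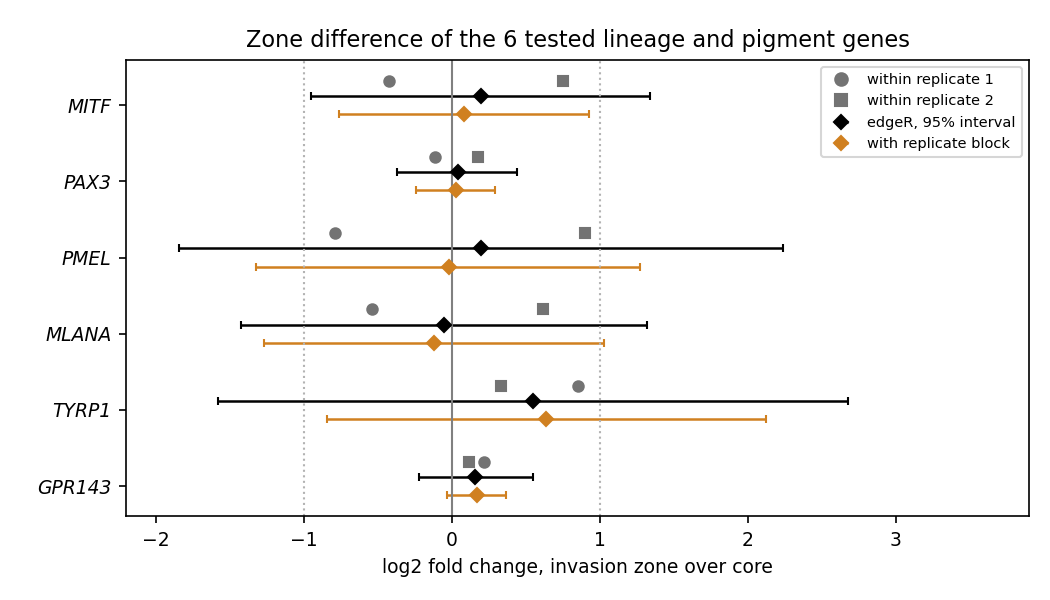
Log2 fold change between the zones (positive, higher in the invasion zone) for the 6 tested genes, by edgeR without (black) and with (orange) the replicate block, with 95% intervals, and the differences within replicate 1 (grey circles) and replicate 2 (grey squares). All intervals include 0, and only those of PAX3 and GPR143 lie within the dotted lines of a 2-fold change in the fit without the block.

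Other genes were read from lists of 96 genes in all, of which 62 were tested. Besides genes of the pathway, the lists hold neural crest and dedifferentiated state genes, general melanoma antigens and markers of other cell types. Without the block edgeR called 0 of the 62 (21 at an unadjusted p under 0.05, where 24.3% of all genes stood) and limma voom 0. DESeq2 called 2 higher and 8 lower, and edgeR with the block 2 higher and 11 lower, against 2.89% and 4.37% of all genes in DESeq2 and 3.41% and 7.06% with the block. With the block, neural crest and dedifferentiated state genes gave 1 of those higher and 4 of those lower. Markers of other cell types gave 0 and 2. Apart from WNT5A, ATP7A and CD14, the genes called with the block were called by DESeq2 without it. The genes of melanosome assembly and transport were present throughout. All 20 were tested, 0 were called with or without the block, the log2 fold changes lay between -0.52 and 0.55, and their median log2 fold change was -0.08, against -0.01 over all tested genes. RAB32, a small GTPase of melanosome cargo delivery, was the most abundant of them per length (59.1 CPM per kb) and had 48.5 and 53.3 CPM in the core and 70.3 and 79.6 CPM in the invasion zone, and its log2 fold change was 0.55 (standard error 0.14, adjusted p = 0.136). Its close relative RAB38 had a log2 fold change of -0.52 (standard error 0.18, adjusted p = 0.171), and BLOC1S4, a subunit of the complex that sorts cargo to melanosomes, was at 26.1 CPM per kb with -0.02.

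The proteins of the melanosome membrane and matrix split into genes with few counts and expressed genes. OCA2, SLC45A2 and SLC24A5, transporters whose loss causes oculocutaneous albinism, had at most 14, 1 and 2 counts in any library and were not tested. SLC24A5 overlaps a gene on the opposite strand over 1574 of its 4760 exonic bases, so that reads of this stretch could have been dropped. GPNMB, a melanosomal glycoprotein related to PMEL that macrophages and other cells also make, had 290 and 250 CPM in the core and 92.9 and 42.2 CPM in the invasion zone, well apart. Its log2 fold change was -2.00 (standard error 0.39, adjusted p = 0.128), and it was called lower by edgeR with the block (-2.08, adjusted p = 9.76e-05) and by DESeq2 without it (adjusted p = 4.52e-06). ATP7A, the copper pump that supplies tyrosinase, had 52.9 and 42.0 CPM in the core and 30.0 and 17.7 CPM in the invasion zone, and was called lower with the block (log2 fold change -1.02, adjusted p = 0.00041), just past the 2-fold minimum. Without the block it stood at -0.99 in edgeR (adjusted p = 0.152) and in DESeq2 (adjusted p = 0.0233), under that minimum, and it was called without invasion zone replicate 1 (-1.44, adjusted p = 0.0063).

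Receptors upstream of MITF were mostly silent. KIT had at most 4 counts and EDNRB at most 2 counts in a library, and POMC had 0 counts throughout. Of the 7 genes of this list 2 were tested, and 0 were called with the block (3.41% higher and 7.06% lower of all genes). MC1R, the melanocortin receptor that raises cyclic AMP in melanocytes, had 18.3 and 24.4 CPM in the core and 26.7 and 31.2 CPM in the invasion zone, and its log2 fold change was 0.43 (standard error 0.20, adjusted p = 0.258), although 1911 of its 4759 exonic bases are shared with genes on the same strand. KITLG, the ligand of KIT, had between 28.4 and 31.4 CPM in all libraries.

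Among transcription factors around MITF, TFAP2B and IRF4 had 0 counts, LEF1 and FOXD3 at most 2 in a library, and 7 of 12 were tested. FOXD3 overlaps a gene on the opposite strand over 618 of its 2562 exonic bases. SNAI2 and ZEB1, repressors linked to mesenchymal transition, were the most abundant per length, at 31.7 and 17.8 CPM per kb, with log2 fold changes of 0.05 and 0.01. BHLHE40, a hypoxia-inducible repressor reported to act on MITF, had 66.6 and 72.7 CPM in the core and 16.8 and 7.29 CPM in the invasion zone. It was the only gene of this list called with the block (log2 fold change -2.52, adjusted p = 0.000159), and without it stood at -2.50 (standard error 0.39, adjusted p = 0.128), while DESeq2 without the block called it lower (adjusted p = 1.64e-08).

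The paralogs of the lineage factors differed in level from the factors themselves. SOX9, the relative of SOX10, had between 121 and 165 CPM and 36.6 CPM per kb, with a log2 fold change of 0.02 (adjusted p = 0.964), while SOX8 had 1 count in all. TFE3, which belongs to the MITF family, had 20.8 CPM per kb against 0.315 for MITF. Its relative TFEB, a regulator of lysosomal genes, had 21.8 and 19.1 CPM in the core and 7.45 and 4.50 CPM in the invasion zone and was called lower with the block (log2 fold change -1.77, adjusted p = 0.000182). TFEC and PAX7 had 0 counts.

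Among genes named as MITF targets outside pigmentation, 10 were tested, and 7 had positive and 3 negative log2 fold changes, with a median of 0.45 against -0.01 over all tested genes. PPARGC1A, which did not pass the filter, had 8 and 19 counts in the core and 0 and 1 in the invasion zone. The core values were both exceeded by each invasion zone value in 7 of the 10 and lay above each in 1, against 28.3% and 30.0% of all tested genes, while with the block 1 was called higher and 1 lower (3.41% and 7.06% of all genes). CDK2, a kinase of the cell cycle, had 20.4 and 29 CPM in the core and 43.4 and 53.9 CPM in the invasion zone, with a log2 fold change of 0.97 (adjusted p = 0.131), and TBX2, a T-box repressor, had 0.90 (adjusted p = 0.15), both under 2-fold with the block as well. BCL2, the survival factor, had 2.37 and 2.34 CPM in the core and 5.48 and 5.77 CPM in the invasion zone, and its log2 fold change was 1.24 (adjusted p = 0.131 without the block and 0.00554 with it). BIRC7, the apoptosis inhibitor livin, had 205 and 88 counts in the core and 11 and 0 in the invasion zone, and its log2 fold change was -4.81 (adjusted p = 0.128 without the block and 0.000226 with it). MITF had a log2 fold change of 0.20 (standard error 0.46) in edgeR without the block, and its part in these differences was not tested.

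**Figure D4:**
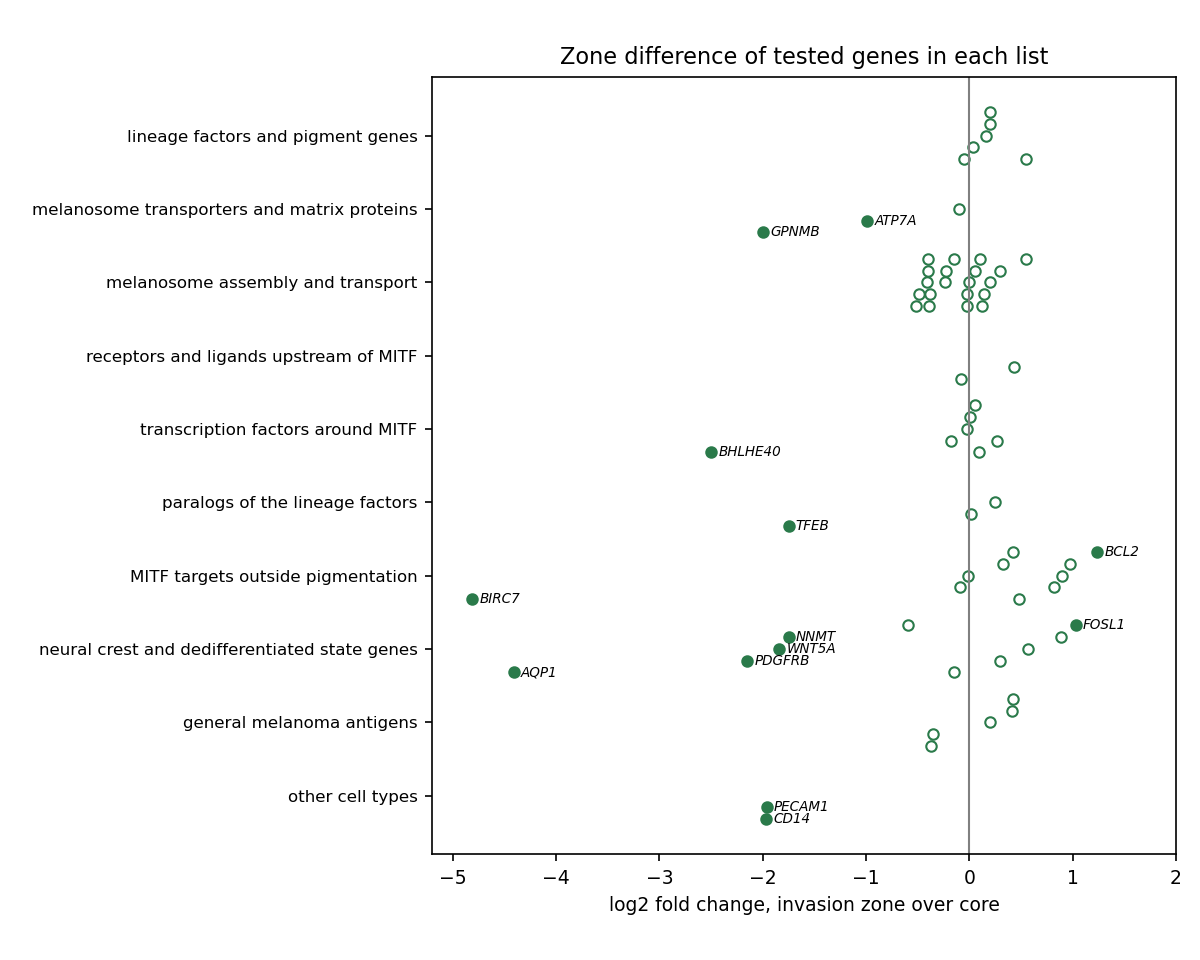
Log2 fold change between the zones (positive, higher in the invasion zone, edgeR without the block) for every tested gene of each list, with filled and named points for genes called with the replicate block. The 6 lineage and pigment genes lie between -0.05 and 0.55, and none of them is filled.

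The labelled cell type was checked against its markers. The melanoma markers S100B, S100A1 and MIA were at most 6 counts in a library, so that they were near 0 together with SOX10, TYR, DCT and TRPM1. CD63, PRAME, NES, CSPG4 and MCAM were expressed, at 272, 48.5, 25.3, 5.51 and 3.55 CPM per kb. With samples of 1 line only, how particular these 5 genes are to melanoma was not tested. Of these 5, 0 were called with the block, against 3.41% higher and 7.06% lower of all genes. Without it edgeR called 0% of all genes. Of the genes known from neural crest-like and dedifferentiated melanoma cells, NGFR, SOX2, RXRG, GFRA2 and ROR2 were at most 3 counts in a library. NGFR overlaps genes on the opposite strand over 1126 of its 4141 exonic bases. FOSL1 (221 CPM per kb), AXL (176 CPM per kb) and LOXL2 (131 CPM per kb) were abundant. AXL, a receptor tyrosine kinase, had 623 and 633 CPM in the core and 1220 and 1130 CPM in the invasion zone, and its log2 fold change was 0.89 (standard error 0.14, adjusted p = 0.128), which was under 2-fold with the block as well. FOSL1, an AP-1 subunit, had 219 and 328 CPM in the core and 500 and 624 CPM in the invasion zone and was called higher with the block (log2 fold change 1.05, adjusted p = 7.89e-05). LOXL2 had a log2 fold change of -0.59 (adjusted p = 0.207 in edgeR without the block). With the block 4 of the 10 tested genes of this list were called lower (7.06% of all genes). These were AQP1 (log2 fold change -4.61), PDGFRB (-2.22), WNT5A (-1.93) and NNMT (-1.83). Without the block 4 of the 10 had positive and 6 negative log2 fold changes, with a median of -0.37 against -0.01 over all tested genes.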

How the data were processed

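Bulk RNA of 2 core and 2 invasion zone samples was sequenced after SMARTer cDNA synthesis. Per the paper's methods, the authors removed ribosomal reads with Bowtie, aligned to hg38 with STAR and assigned uniquely mapped reads to genes with HTSeq-count, and the deposited values are these raw counts, not normalized. Tool versions, the annotation release and the use of strand were not stated. Of 56306 rows, 2 repeated rows without counts were left out. Positions and exonic lengths came from GENCODE 44 on GRCh38, which holds 98.1% of the identifiers.

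Genes that reached 10 counts, scaled to the median library size, in 2 libraries and 15 in total were tested with edgeR 4.0.16 (TMM factors 0.985 to 1.01, R 4.3.3). Standard errors were derived from the quasi-likelihood F. Within-replicate differences used TMM-scaled CPM with a prior of 0.5 counts. Alternatives used DESeq2 1.42.0 and limma 3.58.1. The scripts were tested on counts simulated for 15529 genes, 200 of which were changed by more than 2-fold. Without a shift between replicates, edgeR called 180 of the 200 with the block and 180 without it. With a shift as in these data it called 76 without the block and 178 with it, besides 0 and 8 unchanged genes. The simulated shift was assumed to be shared by libraries of the same number. The dissection protocol takes a core and its invasion zone from the same spheroid, but no source says that a replicate number marks a shared spheroid or day. The deviations of libraries with the same number from the means of their zones correlated at 0.546 across genes (2 pairs), and the blocked fit is given beside the other. The members and lists were chosen with earlier results of these data known. From each list, the text names the called genes and those highest per length or with the largest change, and some genes near 0 counts were added after their values were seen.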

Additional observations from a re-analysis of the deposited data

How the results depend on the processing

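The count of members called was 0 under every setting tried: RLE and upper-quartile scaling, no low-count filter, at least 10 counts in every library, DESeq2, limma voom, the replicate block in edgeR, limma voom and DESeq2 (the last chosen after seeing the data), an unadjusted p, no 2-fold minimum and each library left out. Members detected were 6, against 3 with at least 1 CPM in 2 libraries, 3 with 10 counts in every library (in each case MITF, PAX3 and GPR143) and 4 after thinning to the smallest library (these and MLANA). Of 75 member fold changes under another setting, 63 kept their direction. The log2 fold change turned for MITF to -0.05 (limma voom), for PMEL to -0.28 (limma voom), -0.02 (replicate block) and -0.03 (limma voom with replicate block), for PAX3 to -0.01 (limma voom with replicate block) and for MLANA to 0.01 (DESeq2 with replicate block). With 1 library left out, where the lone library is assumed to vary like the other zone, it ranged from -0.33 to 0.64 for MITF, -0.08 to 0.15 for PAX3, -0.89 to 1.01 for PMEL, -0.32 to 0.39 for MLANA, -0.13 to 1.34 for TYRP1 and 0.06 to 0.30 for GPR143. The negative values of MITF, PAX3 and PMEL came without invasion zone replicate 2, and that of TYRP1 without core replicate 1.

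Over all genes, 0 higher and 0 lower became 530 and 1097 with the replicate block, 575 and 1088 in limma voom with it, 428 and 750 in DESeq2 with it, 353 and 534 in DESeq2 without it, 427 and 846 without a low-count filter and 454 and 909 at an unadjusted p. With 1 library left out they were 0 and 4 (without core replicate 1), 168 and 74 (core replicate 2), 555 and 1119 (invasion zone replicate 1) and 34 and 134 (invasion zone replicate 2). The cause of these differences was not tested. The replicate block changed no call of a member. Division by the longest coding transcript instead of all exonic bases gave 48.4 CPM per kb for GPR143 and 9.88 for PAX3. It gave 0.487 for MITF, 0.339 for MLANA, 0.227 for PMEL and 0.113 for TYRP1. The place of these values among all tested genes was not computed with this length.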

Other observations

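Markers of other cell types, which a line grown alone should lack, were near 0 with the exceptions of PECAM1 and CD14. CD3E had 0 counts, and PTPRC, VWF, CDH5, EPCAM, KRT5 and KRT14 had at most 16 counts in a library. PECAM1, known from endothelium, platelets and leukocytes, had 648 and 112 counts in the core (17.8 and 7.48 CPM) and 196 and 11 counts in the invasion zone (5.21 and 0.933 CPM), a log2 fold change of -1.96 (edgeR, adjusted p = 0.208 without and 0.000461 with the replicate block). CD14 had 1.35 and 1.07 CPM in the core and 0.293 and 0.339 CPM in the invasion zone, with a log2 fold change of -1.97 (adjusted p = 0.142 without and 0.0147 with the replicate block). These 2 genes were the only markers of the list that could be tested, and both were called lower in the invasion zone with the replicate block (7.06% of all genes), PECAM1 also by DESeq2 without it (adjusted p = 0.0356). The summed CPM of the 9 markers was 19.9 and 8.94 in the core and 6.30 and 1.36 in the invasion zone, and its part in other zone differences was not tested.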
